A study of Mus musculus with 2 samples.

Results

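Mir744, Mir652, Mir328, Mir151 and Mir330 are 5 of the 2202 miRNA genes counted in the left cerebral cortex of the mouse. They were picked by name, as single-locus genes of high rank that lie in or opposite protein-coding genes. Their read counts therefore chose them, and their levels are given below as a description, with no test of how high they stand. Small RNA under 30 nucleotides was sequenced from male B6CASTF1/J mice aged 2 months, first-generation hybrids of C57BL/6J and CAST/EiJ that received no treatment named in the labels. The study held 1 group of 2 libraries, library 1 from the animal numbered 3 and library 2 from the animal numbered 4, so no condition was compared. The descriptions number the libraries as biological replicates 1 and 2, yet both samples carry 1 donor identifier. Whether they came from separate animals rests on these numbers in the labels, and the spread between the libraries may be technical.

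A miRNA is cut from a hairpin in a longer transcript, first by Drosha in the nucleus and then by Dicer in the cytoplasm. One strand of the resulting duplex, the 5p or the 3p arm, is loaded into an Argonaute protein and pairs with messenger RNAs mainly through its seed, bases 2 to 8. Many miRNA hairpins lie in introns of protein-coding genes, which can supply the transcript. The protein-coding genes here are Map2k4, which encodes a kinase upstream of JNK, Tmem164, which encodes a membrane protein, Elmo3, whose product belongs to the ELMO family of engulfment and cell motility proteins, Ptk2, which encodes focal adhesion kinase, and Eml2, which encodes a microtubule-associated protein. As background, miR-328 has been reported to repress Bace1, the beta-secretase that starts amyloid processing, and human miR-151 has been studied together with its host gene PTK2 in the migration of liver cancer cells. Human miR-744 has been reported to target TGFB1.

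RefSeq sequences on GRCm38.p6 were matched for 3 of the 5 genes, Mir744, Mir652 and Mir330. They are shown because reads from either arm enter the same count, so the levels below belong to the pair of arms and not to one of them. Each mature miRNA is written 5′ to 3′ with its seed in capitals.
miR-744-5p: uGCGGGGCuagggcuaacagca
miR-744-3p: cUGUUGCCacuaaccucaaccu
miR-652-5p: cAACCCUAggagggggugccauuc
miR-652-3p: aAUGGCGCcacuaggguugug
miR-330-5p: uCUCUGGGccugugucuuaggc
miR-330-3p: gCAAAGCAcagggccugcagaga
These 6 arms held 6 distinct seeds, so no seed was shared among the 3 genes. The seeds of 4 arms, both of Mir744 and both of Mir652, occurred in no other gene of the 1738 mature mouse miRNAs in the table. That was the case for 68.0% of all mature miRNAs there.

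The hairpins that hold these arms are given next, with the 5p arm and the 3p arm in capitals. They lie at chr11:65734733-65734832 on the minus strand (Mir744), chrX:142739000-142739097 on the plus strand (Mir652) and chr7:19181465-19181562 on the plus strand (Mir330).
Mir744: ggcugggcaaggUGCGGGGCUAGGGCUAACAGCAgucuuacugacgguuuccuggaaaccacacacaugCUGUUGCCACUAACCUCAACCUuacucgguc
Mir652: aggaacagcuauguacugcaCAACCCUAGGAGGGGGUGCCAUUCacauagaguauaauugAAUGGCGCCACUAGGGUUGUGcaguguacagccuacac
Mir330: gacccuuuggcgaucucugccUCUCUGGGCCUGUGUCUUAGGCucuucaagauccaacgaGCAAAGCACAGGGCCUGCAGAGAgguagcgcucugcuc
In the fold of lowest predicted energy, 16 bases of the 5p arm paired with the 3p arm in Mir744, 18 in Mir652 and 19 in Mir330. The arms stood 35 bases apart in Mir744, against 16 in Mir652 and 17 in Mir330, the widest gap of the 3. Predicted energies were -44.8 kcal/mol per 100 bases for Mir744, -50.0 for Mir652 and -43.4 for Mir330, where the median of 1005 RefSeq hairpins was -40.6. The GC content was 56.0% in Mir744, 50.0% in Mir652 and 58.2% in Mir330, beside a median of 51.7% for those hairpins.

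No annotated copy of the 5 hairpins was found. In GENCODE M21, no other miRNA gene shared a stretch of 20 bases with any of the 5 hairpins, on either strand. The whole arms of miR-744 and miR-652 occurred in no transcript of another gene, and both arms of miR-330 occurred only in a transcript of Eml2, its host. This bears on the counts because reads mapped to several places, 41.7% of library 1 and 41.1% of library 2, were given to no gene by the layout of the count files. The search covered annotated transcripts only, not the whole genome.

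Together the 5 genes held 333660 of 3827158 sense-strand miRNA reads in library 1 and 451068 of 4553291 in library 2. These were 8.72% (95% exact interval 8.69 to 8.75%) and 9.91% (9.88 to 9.93%) of the reads, with a mean of 9.31% ± 0.840 (SD, n = 2). The intervals cover counting error only, since reads that come from PCR without molecular identifiers need not be independent molecules. Mir744 supplied 46.2% of the reads of the 5 genes in library 1 and 44.0% in library 2. The other 4 genes each supplied between 11.95% and 17.0% of them, so 1 gene held nearly as much as the rest combined.

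Mir744 (ENSMUSG00000076460.1) had 154289 reads in library 1 and 198603 in library 2, or 40314 and 43617 counts per 1000000 sense-strand miRNA reads (CPM). Its mean was 41966 ± 2336 CPM (SD, n = 2), which ranked 7 among all miRNA genes. Both libraries placed it far above the other 4 genes and near the abundant Mirlet7d, Mir127 and Mir132. All ranks and shares given here are among reads placed at 1 gene. Reads mapped to several places, 41.7% of library 1 and 41.1% of library 2, were left out. Genes with copies can thus stand too low beside the 5 genes.

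Mir652 (ENSMUSG00000076011.1) had 46041 reads in library 1 and 76875 in library 2, or 12030 and 16883 CPM, with a mean of 14457 ± 3432 CPM. It had the widest spread of the 5, with a coefficient of variation of 23.7%. Its rank was 15 in library 1 and 11 in library 2, so library 2 was the high one.

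Mir328 (ENSMUSG00000070130.1) had 49712 reads in library 1 and 62108 in library 2, or 12989 and 13640 CPM, with a mean of 13315 ± 460 CPM. Its coefficient of variation, 3.46%, was the smallest of the 5. The values of its 2 libraries both lay inside the range that Mir652 spanned.

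Mir151 (ENSMUSG00000065612.1) had 42643 reads in library 1 and 59578 in library 2, or 11142 and 13085 CPM, with a mean of 12113 ± 1373 CPM. Mir330 (ENSMUSG00000065543.1) had 40975 reads in library 1 and 53904 in library 2, or 10706 and 11838 CPM, with a mean of 11272 ± 801 CPM. In order of mean CPM the genes ran Mir744, Mir652, Mir328, Mir151 and Mir330, at ranks 7, 11, 13, 15 and 17. Only Mir744 stood apart from its neighbour in CPM range over the libraries, since the ranges of Mir652 and Mir328, of Mir328 and Mir151, and of Mir151 and Mir330 overlapped. Within each library, Mir328 lay above Mir151 (1.17 and 1.04 times its reads in libraries 1 and 2) and Mir151 above Mir330 (1.04 and 1.11 times), while Mir652 and Mir328 changed places.

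Dividing by annotated hairpin length changed the order. Fragments under 30 nucleotides cover only part of a hairpin, so its annotated length need not scale with its reads. Per base of annotated hairpin, Mir744 still led at 420 CPM per base, but Mir151, whose annotated hairpin has 68 bases against 97 to 100 in the others, came next at 178 CPM per base. Mir652 stood at 148, Mir328 at 137 and Mir330 at 115 CPM per base.

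**Figure D1:**
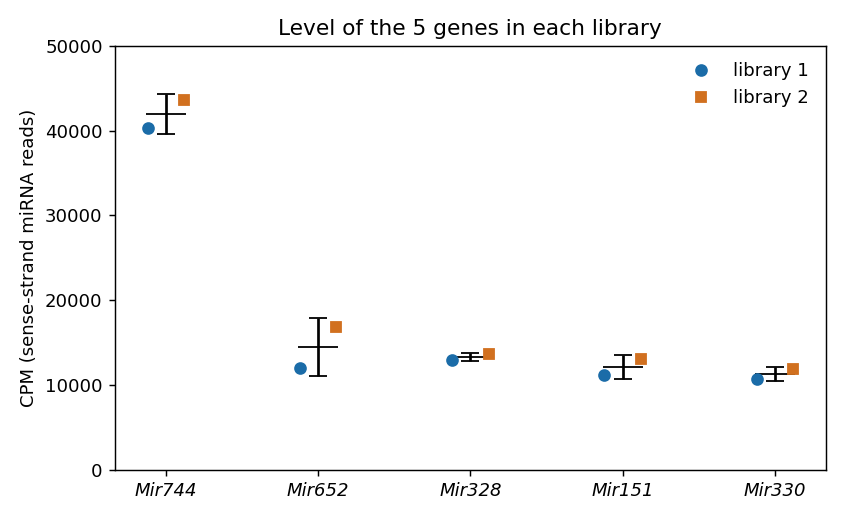
Level of each gene in CPM (vertical axis, from 0) in library 1 (circles) and library 2 (squares), with the mean and SD over both as a black bar. Mir744 sits between 40314 and 43617 CPM, and the other 4 genes sit between 10706 and 16883 CPM.

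Within a library, ratios of reads between the genes need no scaling by the library total. Whether reads of different miRNAs follow their molecules alike was not tested, so these ratios and the ranks describe reads. Mir744 had 3.77 times the reads of Mir330 in library 1 and 3.68 times in library 2, and 3.10 and 3.20 times those of Mir328. The ratio to Mir151 was 3.62 in library 1 and 3.33 in library 2. These ratios moved little between the libraries, whereas that of Mir744 to Mir652 was 3.35 in library 1 and 2.58 in library 2. Mir652 stood below Mir328 in library 1, at 0.926 times its reads, and above it in library 2, at 1.24 times.

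The ranks between those of the 5 genes were taken by other miRNAs. Mir125a ranked 12, Mir433 14 and Mir770 16, and Mir29a followed Mir330 at rank 18. Of the 20 genes with the highest mean CPM, 10 lay on the strand of a protein-coding gene that contained them, 4 lay opposite one and 6 lay outside. The rule for the 5 genes used this location, so it is not a result about them.

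**Figure D2:**
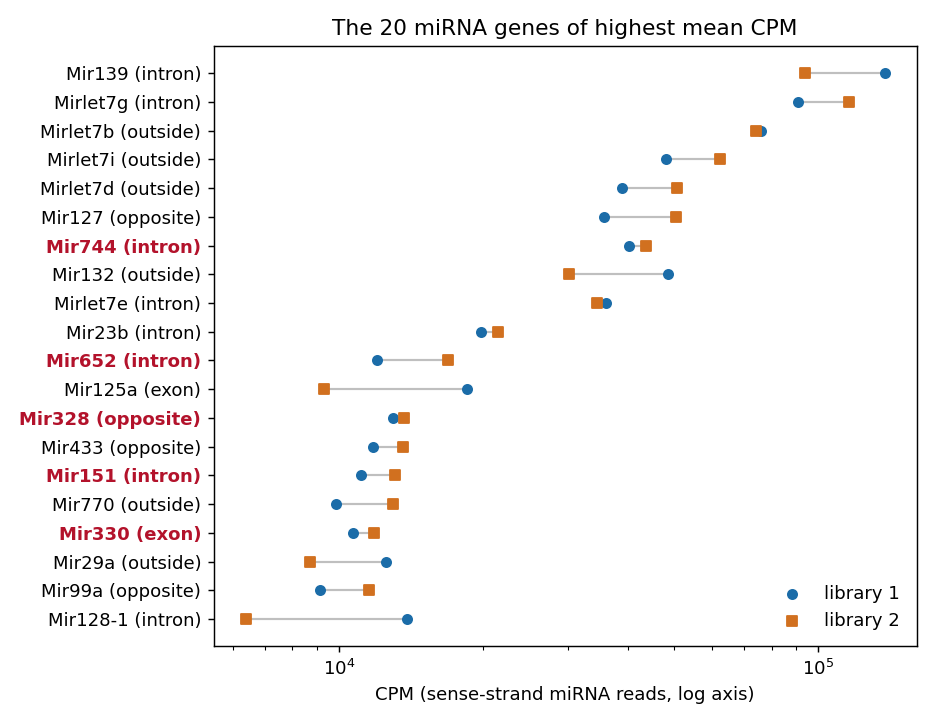
The 20 miRNA genes of highest mean CPM, from the highest at the top, with CPM on a log axis in library 1 (circles) and library 2 (squares) and the 5 genes in bold red. The word in brackets gives the place relative to a protein-coding gene on GENCODE M21: in an intron or overlapping an exon on its strand, opposite it, or outside. Mir744 stands at rank 7 and the other 4 genes alternate with Mir125a, Mir433 and Mir770 from rank 11 to rank 17.

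All 5 genes had lower CPM in library 1 than in library 2, but for Mir328 this rested on the scaling, since with Mir139, the gene of highest mean, left out of the totals it stood at 15059 CPM in library 1 and 15051 in library 2. Mir139 took 137427 CPM of library 1 and 93753 CPM of library 2. The log2 ratio of CPM in library 1 over library 2 was -0.49 for Mir652 (95% exact interval -0.51 to -0.47), which is 1.40-fold. It was -0.23 for Mir151 (-0.25 to -0.21), -0.15 for Mir330 (-0.16 to -0.13), -0.11 for Mir744 (-0.12 to -0.10) and -0.07 for Mir328 (-0.088 to -0.054). Mir328 thus differed by 1.05-fold, Mir744 by 1.08-fold, Mir330 by 1.11-fold and Mir151 by 1.17-fold.

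Reads of each gene were compared with those expected from the library totals by an exact binomial test (two-sided), adjusted by Benjamini-Hochberg over 508 genes with 10 or more reads, and 5 of 5 genes differed between the libraries. The same test called 48.4% of all genes tested, and 23.2% as lower in library 1. It allows for counting error only and calls small differences at high depth. Of 55 genes with at least 10000 reads in both libraries it called 94.5%, and 61.8% as lower in library 1, so having all 5 genes called is near what genes of that depth gave in either direction. The weakest call was that of Mir328 (adjusted p = 1.95e-15, exact binomial test), and without Mir139 in the totals it was lost (log2 ratio 0.00071, 95% exact interval -0.016 to 0.018, adjusted p = 0.980). The other 4 genes were called as lower in library 1 on those totals too, with log2 ratios of -0.42 for Mir652, -0.16 for Mir151, -0.074 for Mir330 and -0.042 for Mir744. The exact test of edgeR adds a spread between libraries, estimated from the same 2 libraries. It called 0 of 5 genes (adjusted p = 1 for each) and 0.787% of the 508 genes. At an unadjusted p under 0.05 it had 0 of 5 genes and 4.92% of the 508. The differences under test are part of the spread that edgeR used, so genes it left uncalled are not shown to be alike.

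The median fold between libraries was 1.11 over the 5 genes, 1.23 over the 55 genes of high depth and 1.33 over all 508 genes tested. Folds of low-count genes carry more counting error, so the genes of high depth are the closer yardstick. Of those 55, 11 differed by less than Mir328 did, 15 by less than Mir744, 20 by less than Mir330 and 25 by less than Mir151. For Mir652 the number was 42, so its difference stood in the upper part and that of Mir151 near the middle. Over all 508 genes, 9.25% differed by less than Mir328 did and 56.5% by less than Mir652. The median log2 ratio was -0.15 over the 5 genes, -0.12 over the 55 genes and -0.01 over the 508 genes.

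**Figure D3:**
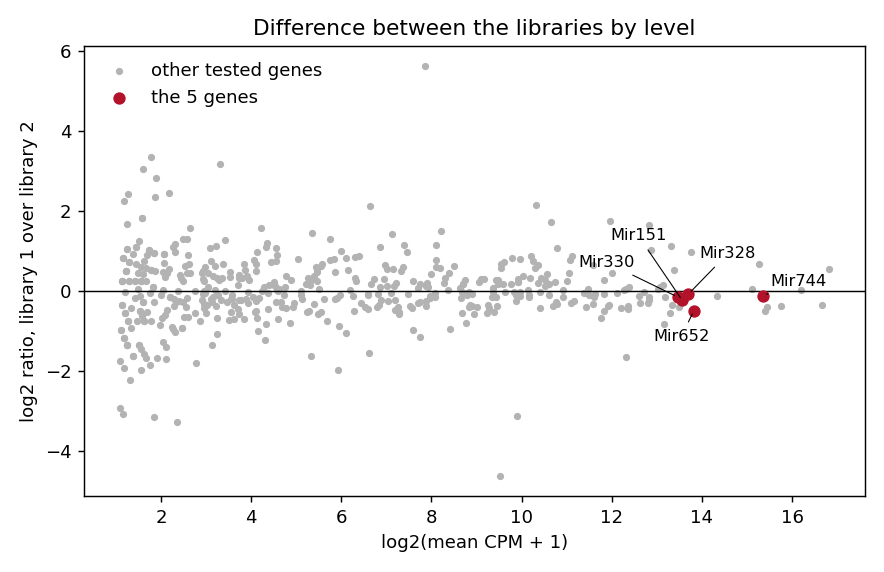
The log2 ratio of library 1 over library 2 (vertical axis) against log2(mean CPM + 1) for the 508 genes tested, except Mir7039. That gene had 0 reads in library 1, so its ratio is not finite and is not drawn. The 5 genes are in red and the line marks equal CPM. The 5 red points lie between -0.49 and -0.07, below the line on this scaling (Mir328 at 0.00071 without Mir139 in the totals), and other genes spread more widely, most of all at low levels.

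Lists of miRNAs taken as markers of cell types were summed in each library, and the sums were not tested. Neuronal miRNAs summed to 7.77% of reads in library 1 and 5.25% in library 2, with 9 of 12 detected (10 or more reads in both libraries). Mir132 (48515 and 30152 CPM) and Mir128-1 (13881 and 6392 CPM) carried that sum. Of the 9 detected genes, 5 were higher in library 1 and 4 lower, such as Mir138-1 (4434 and 6046 CPM). The copies of Mir124a and Mir9 on this list had few reads, at most 202 in library 1 and 276 in library 2 (Mir9-3). Reads shared by copies would be given to no gene, so the sum does not measure the neuronal content. The red blood cell list of 3 genes, led by Mir451a, summed to 0.0134% and 0.155%, with 3 of 3 detected, 1 higher in library 1 and 2 lower. The vessel list summed to 1.44% and 1.86% (3 of 3 detected), the oligodendrocyte list to 0.498% and 0.346% (2 of 2) and the microglia and leukocyte list to 0.213% and 0.171% (3 of 4). Of the vessel genes, 1 was higher in library 1 (Mir145a, 254 and 221 CPM) and 2 were lower. The detected genes of the other 2 lists were all higher in library 1. Mir122 of liver stood at 0.00724% and 0.00786%. Of the 5 muscle miRNAs listed, Mir206 was detected, and the copies of Mir1a and Mir133a were at 0, where reads shared by copies would be given to no gene. The part of these cells in the difference at the 5 genes was not tested.

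The genes most like each of the 5 over both libraries were found as the nearest others in log2(CPM + 1), a distance over 2 libraries only. Mirlet7d was nearest to Mir744 at a distance of 0.23, and Mir127 followed at 0.28. Mir433 was nearest to Mir151 at 0.10, to Mir328 at 0.14 and to Mir652 at 0.31. Mir770 was nearest to Mir330 at 0.18, with Mir99a next at 0.23, and it came second for Mir652 (0.47), Mir328 (0.40) and Mir151 (0.18). With 2 libraries, such nearness says little more than that the levels were alike.

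Of the 5 genes, 4 lie on the strand of their protein-coding gene and 1 lies opposite (mm10, GENCODE M21). Mir744 (minus strand of chromosome 11, 65734733 to 65734832) sits inside an intron of Map2k4, 53465 bases from the start of that gene and 359 bases from the nearest exon. Mir652 (plus strand of chromosome X, 142739000 to 142739097) sits inside an intron of Tmem164, 57594 bases from its start and 12937 bases from the nearest exon. Mir151 (minus strand of chromosome 15, 73254815 to 73254882) sits inside an intron of Ptk2, 168398 bases from its start and 2151 bases from the nearest exon. The antisense transcript 1700085D07Rik runs across it on the other strand. Each of these 3 overlapped no exon of any annotated transcript of its host.

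Mir330 (plus strand of chromosome 7, 19181465 to 19181562) begins 5044 bases into Eml2. Of its 98 bases, 84 overlap an exon of 1 of 8 Eml2 transcripts, a processed transcript annotated without a protein, and it overlaps no exon of the others. Mir328 (minus strand of chromosome 8, 105308364 to 105308460) is the gene on the opposite strand, 2763 bases from the start of Elmo3. Its hairpin shares 12 bases with an exon of 3 of 5 Elmo3 transcripts, on the other strand. Another annotated miRNA gene, Gm27320, lies 463 bases from Mir328 on the same strand and had 0 reads in both libraries, which allows up to 0.784 CPM in library 1 and 0.659 CPM in library 2. No other miRNA gene lies within 10 kb of any of the 5, so none of the other 4 has a neighbour with which it could share a cluster at that distance.

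**Figure D4:**
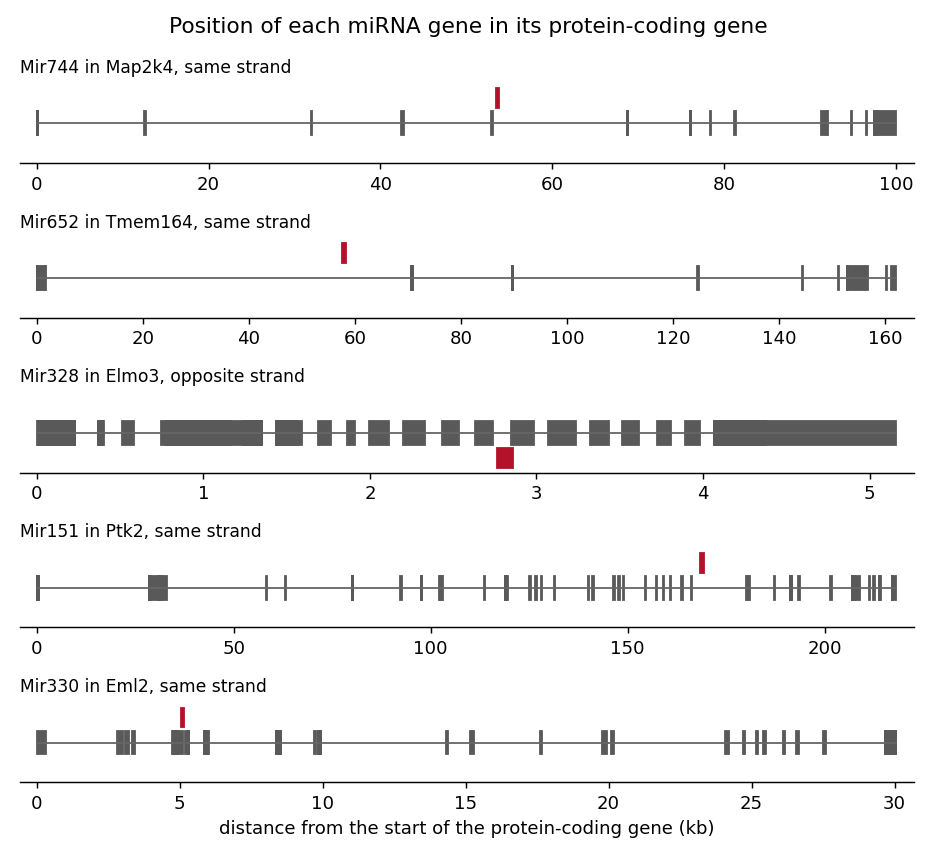
Position of each miRNA gene (red) along its protein-coding gene, whose exons from all annotated transcripts are dark boxes, with distance from the start of the protein-coding gene in kb. Red boxes above the line lie on the same strand and the one below lies on the opposite strand, and red boxes are drawn wider than the hairpin in long genes so that they can be seen. Mir328 sits opposite Elmo3, which is 5160 bases long, and Mir151 sits 168398 bases into Ptk2.

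All reads counted at the 5 genes fell on the annotated strand. The antisense column held 0 reads at each of them in both libraries, which allows up to 3 reads per gene. The column that ignores strand held the same counts as the sense column at all 5, so no overlapping miRNA gene took reads from them. For Mir328 this means that no read was counted on the strand of Elmo3 at the hairpin.

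Of the 2202 miRNA genes, 969 lie on the strand of a protein-coding gene that contains them, and 217 of these (22.4%) had 10 or more reads in both libraries. Of the 306 genes opposite a protein-coding gene, 26 (8.50%) did, and of the 927 outside, 163 (17.6%). The same-strand class held 51.95% of the miRNA reads of library 1 and 49.3% of those of library 2. The opposite-strand class held 7.80% and 9.77%, and Mir328 was among 3 of its genes at or above the mean CPM of Mir330. The median log2(mean CPM + 1) was 0 in all 3 classes and over all miRNA genes, because 1444 genes had no read. Between the libraries the binomial test called 121 of 300 same-strand genes tested (40.3%), 16 of 26 opposite-strand genes (61.5%) and 109 of 182 genes outside (59.9%). Over all 508 genes tested it called 48.4%. Genes with 100 or more reads in both libraries numbered 117, 16 and 120 in these classes. The test calls smaller differences at higher depth, so the percentages do not compare how alike the classes were between libraries.

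Relatives by seed were found for Mir330, and those of Mir151 were taken from a list of its family. The seed of miR-330-5p is also that of miR-326-3p, whose gene Mir326 lies in an intron of Arrb1, the gene of beta-arrestin 1.
miR-330-5p: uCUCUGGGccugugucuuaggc
miR-326-3p: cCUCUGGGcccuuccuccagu
Mir326 had 2476 reads in library 1 and 3011 in library 2, or 647 and 661 CPM, with a mean of 654 ± 10.1 CPM (SD, n = 2). It did not pass the exact binomial test between libraries (log2 ratio -0.03, adjusted p = 0.551). The seed of miR-330-3p was shared with miR-6240, whose gene had 14 reads in library 1 and 13 in library 2. Of the genes found with either seed, Mir330 held the most counted reads, but it was picked for its high rank. Seeds were looked up among the 1738 mature miRNAs of the RefSeq table, so genes absent from it were not searched.

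Mir151 is placed with Mir28 and Mir708 in the mir-28 family, and the hairpins of Mir28 and Mir151 are known to derive from LINE-2 repeats. Of the 4 other genes of that list, Mir708 was the highest, with 6965 reads in library 1 and 9203 in library 2, or 1820 and 2021 CPM, and a mean of 1921 ± 142 CPM. Mir28a had 1720 reads in library 1 and 2668 in library 2, or 449 and 586 CPM, and a mean of 518 ± 96.5 CPM. Mir28b had 1 read in library 1 and 0 in library 2, and Mir28c had 0 in both. No sequence of Mir151 was matched, so its own seed was not compared with theirs. The mature 5p arms of Mir28a and Mir708 share a seed, as their sequences show.
miR-28a-5p: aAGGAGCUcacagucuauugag
miR-708-5p: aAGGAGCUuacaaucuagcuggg
Mir151, at 12113 CPM, was the highest of the 5 genes of the family in both libraries. It was picked for its high rank, so this is a description only. By the binomial test Mir708 was 1.11-fold lower in library 1 (adjusted p = 1.41e-10, exact binomial test) and Mir28a 1.30-fold lower (adjusted p = 2.89e-17, exact binomial test), beside 1.17-fold for Mir151. Mir708 lies in an intron of Tenm4 and Mir28a in an intron of Lpp, each on the strand of its host, as Mir151 does in Ptk2.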

How the data were processed

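The authors deposited 1 table per library with raw read counts per miRNA gene, without normalization. Their build was mm10, per the labels, and their annotation M21 of GENCODE, per the deposited descriptions. No aligner or adapter trimming is named there. The 4 tally rows, which name no gene, held 66.3% of library 1 and 64.9% of library 2 and stayed out of totals and tests. The sense-strand column was used, and library totals were 11372894 and 12980686 reads.

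From the counts, CPM used sense-strand miRNA reads as the total, with a pseudocount of 1 CPM on the log2 scale for distances. Symbols were matched for all 2202 identifiers. Libraries were compared by the exact binomial test (scipy 1.17.1, Benjamini-Hochberg at 0.05). It was tried on simulated counts with counting error only, so its behaviour under a spread between libraries was not tested. Alternatives used edgeR 4.0.16 and DESeq2 1.42.0 in R 4.3.3. Hairpins were folded with RNAfold 2.7.2. Python was 3.11.15, with pandas 2.3.3 and numpy 2.4.6.

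The genes and lists were chosen with earlier results of these data known. The named genes are the 5 genes, the 2 nearest others of each in level, genes that share a seed, the mir-28 family and miRNA genes at the same loci; rank neighbours and Gm27320 were named after their values were seen. Mature arms and parental alleles were not analysed here.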

Additional observations from a re-analysis of the deposited data

Results flagged for a closer look

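Mir708, a relative of Mir151, had 10 antisense reads in library 1 and 9 in library 2, in a column that no comparison used. These exceed the 3 reads that a count of 0 allows, beside 6965 and 9203 sense reads.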

How the results depend on the processing

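Of the alternatives, 7 could move the ratio between libraries. Mir744, Mir652, Mir151 and Mir330 kept their direction under all 7. Mir328 kept it under 6 and turned to 0.00071 with Mir139 left out of the totals, an alternative added after seeing the data like the totals of all reads and of uniquely placed reads. The log2 ratio of library 1 over library 2 ranged from -0.55 to -0.42 for Mir652 and from -0.13 to 0.00071 for Mir328. The binomial test called 4 of the 5 genes without Mir139 and all 5 under the other totals, the count minimums and the column that ignores strand, while edgeR's exact test called 0 of the 5, and 4 of 508 genes in place of 246. That test adds a spread between libraries, a coefficient of variation of 33.3% from these 2 libraries, which includes the differences under test. Restricting the test to genes of at least 10000 reads, also added after seeing the data, called 52 genes, since fewer genes were tested. The combined share of 9.31% became 8.13% of uniquely placed reads, 3.20% of all reads and 10.5% without Mir139, by construction of the denominators. It was 8.72% without library 2 and 9.91% without library 1. Same-strand genes in protein-coding genes numbered 379 at 1 read in both libraries and 117 at 100 reads, in place of 217. No paired analysis was possible because the series has 1 group. With 2 libraries, each SD rests on 2 values.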
